A study of Bos taurus with 14 samples.

Results

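Store-operated calcium entry lets a cell take up calcium across its surface membrane when the calcium store inside the cell runs low. STIM1 and STIM2 sense the store from the membrane of the reticulum, ORAI1, ORAI2 and ORAI3 form the pore in the surface membrane, and CRACR2A and CRACR2B are cytosolic proteins with calcium-binding EF hands that regulate the pore. In skeletal muscle the sensors and pores meet where the sarcoplasmic reticulum touches the transverse tubules, entry helps to refill the store during repeated contraction, and human mutations of STIM1 and ORAI1 cause myopathy. These 7 genes were described among the 18078 genes counted in the back muscle longissimus dorsi. CRACR2B was chosen by its small unadjusted p-value between the diets of the dams, and the other 6 were taken as the rest of the entry complex, not for values of their own. Each symbol stood on 1 row of the table, and 6 of the 7, all but ORAI2, passed the filter on low counts that left 12187 genes for testing.

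RNA was sequenced from 14 female cattle (Bos taurus) slaughtered on postnatal day 485, each library being 1 animal. The dams of 7 animals were restricted from day 158 of gestation until birth, to 70% of their nutrient requirement in the design text and to 50% in the treatment protocol, so the level is uncertain. The dams of the other 7, the controls, received 100% over the same days. After birth all animals were managed alike, with feed ad libitum from postnatal day 301. Libraries held 13631018 to 17325779 counts. Levels are given as CPM, the count of a gene scaled to a common library size. Of 10 genes that define skeletal fibres 9 were in the table, and they summed to 174800 to 206900 CPM in restricted and 150700 to 197300 CPM in control animals, so the labelled tissue was present. Control 7, restricted 4 and restricted 7 stood apart from the other libraries in interferon-response genes, whose summed level ran from 26.7 to 488.3 CPM in restricted and from 19.1 to 244.0 CPM in control animals. The fits were repeated without these 3 libraries.

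The entry complex of this muscle was mainly STIM1 and ORAI1. Levels between genes were compared as CPM per kilobase of the gene length given in the table. STIM1 averaged 28.1 ± 2.45 CPM per kilobase over all animals (SD, n = 14) and ranged from 24.3 to 32.2. ORAI1 followed at 10.8 ± 1.41 CPM per kilobase, and STIM2, the sensor that responds to smaller losses of stored calcium, at 2.85 ± 0.396. Below them lay CRACR2B at 1.59 ± 0.406, ORAI3 at 1.02 ± 0.240, CRACR2A at 0.298 ± 0.0739 and ORAI2 at 0.121 ± 0.0765 CPM per kilobase. The order was almost the same in every animal. Each gene lay above the next one down in 14 of 14 animals, except that CRACR2B lay above ORAI3 and CRACR2A above ORAI2 in 13 of 14 each.

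**Figure D1:**
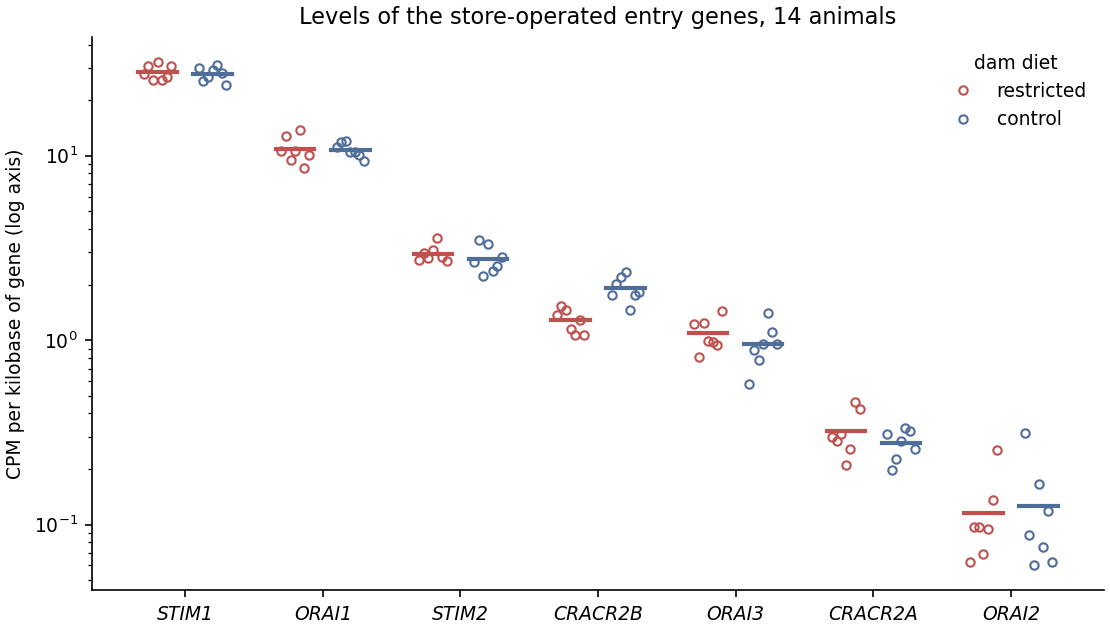
Level of each entry gene in CPM per kilobase of gene (log axis), 1 point per animal, with restricted animals left of control animals and a bar at each group mean. STIM1 and ORAI1 lay highest in both groups, ORAI2 lowest, and CRACR2B had the largest ratio between the group means among the 6 tested genes.

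Within each class 1 gene held most of the level. STIM1 made up 90.6% ± 1.30 of the summed STIM level per kilobase in restricted and 90.9% ± 1.82 in control animals (SD, n = 7 each). ORAI1 made up 89.8% ± 2.80 of the ORAI level in restricted and 90.8% ± 2.10 in control animals. ORAI3, a pore subunit found in mammals, gave 9.24% ± 2.39 of it in restricted and 8.11% ± 2.38 in control animals, and ORAI2 the remaining 0.991% ± 0.598 and 1.07% ± 0.758 in the same order of groups. The level of STIM1 was 2.68 ± 0.443 times that of ORAI1 in restricted and 2.60 ± 0.303 times in control animals. In each of these shares and ratios the group means lay closer together than 1 SD of either group. The level summed over the 7 genes was 44.98 ± 3.24 CPM per kilobase in restricted and 44.51 ± 2.60 in control animals. The regulators divided differently, since CRACR2B held 79.9% ± 5.19 of the CRACR2 level in restricted and 87.1% ± 3.61 in control animals. This difference includes the one that CRACR2B was chosen for. The level of CRACR2A, which also enters the share, was 0.320 ± 0.0898 CPM per kilobase in restricted and 0.275 ± 0.051 in control animals.

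CRACR2B, also known as EFCAB4A, is the paralog of CRACR2A. CRACR2B (ENSBTAG00000017805) was lowest at 3.21, at the median 3.88 and highest at 4.64 CPM in restricted animals, against 4.37, 5.53 and 7.04 CPM in controls. All 7 restricted animals lay below the control median and 5 of 7 below every control. The groups overlapped through control 5, whose 4.37 CPM lay under restricted 2 and restricted 3 at 4.64 and 4.41 CPM. The means were 3.85 ± 0.575 CPM in restricted and 5.74 ± 0.908 CPM in control animals (SD, n = 7 each). The fitted ratio, restricted over control, was 0.669 with a 95% interval of 0.554 to 0.808, or -0.58 ± 0.129 on the log2 scale (SE). Its unadjusted p by edgeR's quasi-likelihood test, the value that chose it, was 0.000322, the third smallest of 12187, and its adjusted p was 1.0. These values describe the choice and are no test of it. Leaving out 1 animal at a time gave log2 ratios of -0.63 to -0.52, and without the 3 interferon-high libraries it was -0.51. CRACR2B rested on 50 to 127 reads per animal. Its coefficient of variation over the 14 animals was 25.5%, against 11.4% from the counting of reads alone. The 25.5% pools both diets and so includes the difference CRACR2B was chosen for, which the SD within each group leaves out.

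**Figure D2:**
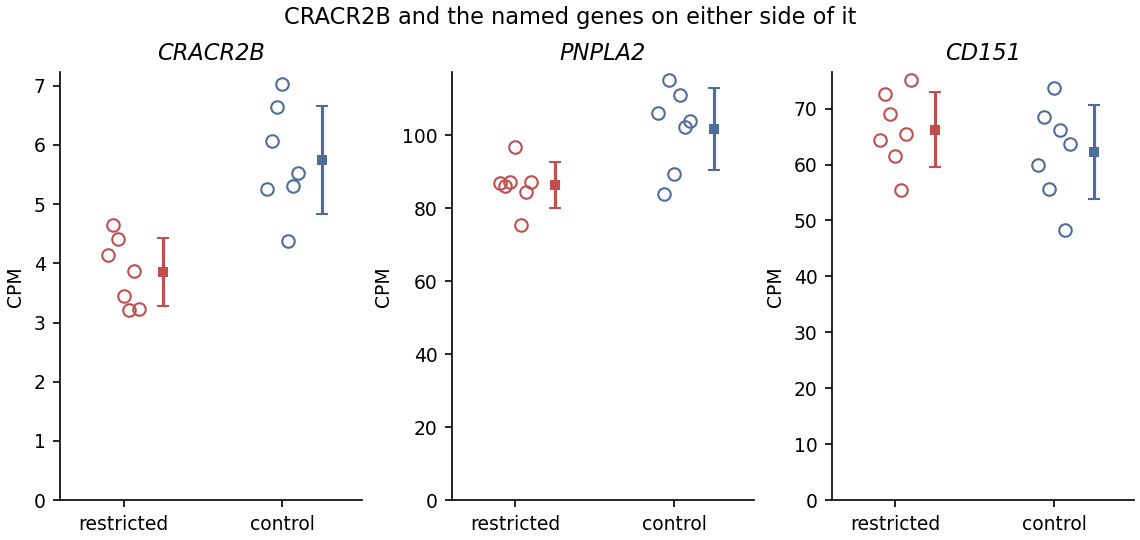
CPM of CRACR2B and of PNPLA2 and CD151, the named genes on either side of it, 1 point per animal, with restricted animals on the left and squares with bars for the mean ± SD (n = 7 each). The groups overlapped for all 3 genes, and the restricted mean lay below the control mean for CRACR2B and PNPLA2 and above it for CD151.

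The gene next to CRACR2B also lay lower in restricted animals. In the RefSeq gene table of the assembly ARS-UCD2.0, used for neighbours only, CRACR2B overlaps no other gene and lies between CD151, which encodes a tetraspanin, and PNPLA2, which encodes adipose triglyceride lipase. An unnamed locus, not analysed here, lies between it and CD151. PNPLA2 (ENSBTAG00000005144) was lowest at 75.3, at the median 86.9 and highest at 96.6 CPM in restricted animals, against 83.8, 103.8 and 115.2 CPM in controls. All 7 restricted animals lay below the control median and 5 of 7 controls above every restricted animal, so the groups overlapped. The log2 ratio of PNPLA2 was -0.24 with an interval of -0.40 to -0.08 and an unadjusted edgeR p of 0.0065, rank 58 of 12187, and its adjusted p was 1.0. CD151 was at 66.2 ± 6.70 CPM in restricted and 62.2 ± 8.44 CPM in control animals, a log2 ratio of 0.09 with an interval of -0.10 to 0.28.

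PNPLA2 had many more reads than CRACR2B. For every 100 PNPLA2 reads there were 4.48 ± 0.675 CRACR2B reads in restricted and 5.75 ± 1.36 in control animals (SD, n = 7 each). The strand setting of the counting is not given in the sources used here, and whether reads from PNPLA2 reached the CRACR2B count was not tested. Over all 14 animals the log2 CPM of CRACR2B and PNPLA2 had a Pearson r of 0.45 and a Spearman rho of 0.40, but r was 0.18 among restricted and -0.43 among control animals, and -0.20 after each group was centred on its mean. The positive relation was thus absent among controls and after centring.

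CRACR2A, known in T cells for holding ORAI1 and STIM1 together, was barely expressed. CRACR2A (ENSBTAG00000018940) was lowest at 0.622, at the median 0.879 and highest at 1.36 CPM in restricted animals, against 0.583, 0.831 and 0.980 CPM in controls. The groups overlapped over most of their range, with restricted 6 and restricted 7 highest. The log2 ratio was 0.23 ± 0.212 (SE), with an interval of -0.22 to 0.67 and an edgeR unadjusted p of 0.301, and ran from 0.12 without restricted 6 to 0.30 without restricted 4. CRACR2A rested on 9 to 22 reads per animal, and its coefficient of variation of 24.8% was no larger than the 26.9% that counting alone gives. At this depth its spread between animals was not detectable beyond counting error. The 18 T and NK cell markers, all in the table and 7 of them above the filter, summed to 5.25 to 19.1 CPM in restricted and 5.12 to 14.02 CPM in control animals. With the mean log2 CPM of these 7 markers CRACR2A had a Pearson r of 0.10 and a Spearman rho of -0.02 over the 14 animals. That r was 0.33 among restricted and -0.29 among control animals. In a bulk sample fewer cells of a type and less RNA per cell cannot be told apart.

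STIM1, the main store sensor, had the most reads and the smallest coefficient of variation of the 7 genes. STIM1 (ENSBTAG00000013109) was lowest at 113.2, at the median 122.9 and highest at 142.6 CPM in restricted animals, against 107.5, 123.7 and 137.3 CPM in controls. The groups covered nearly the same range, and the coefficient of variation over the 14 animals was 8.71%, against 2.26% from counting alone. Genes with fewer reads carry more counting error, so this order does not rank their spread between animals. The log2 ratio was 0.035 ± 0.073 (SE) with an interval of -0.12 to 0.19 and an edgeR unadjusted p of 0.642. The highest and the lowest animal, restricted 4 and control 7, were both interferon-high. Without the 3 interferon-high libraries the log2 ratio was -0.055, and with library size scaling it was -0.013, so its sign was not stable. Gene counts do not separate the long splice form of STIM1 that muscle makes from the common one.

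STIM2 (ENSBTAG00000019353), with 109 to 209 reads per animal, was lowest at 9.34, at the median 9.79 and highest at 12.4 CPM in restricted animals, against 7.73, 9.19 and 12.2 CPM in controls. No restricted animal lay below the control median, yet the restricted range fell almost wholly inside the control range. The log2 ratio was 0.09 ± 0.11 (SE), with an interval of -0.14 to 0.32 and an edgeR unadjusted p of 0.434. It ran from 0.038 without restricted 5 to 0.155 without control 2, and was 0.031 with library size scaling.

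ORAI1, the pore subunit that carries most entry in muscle, did not separate the diets. ORAI1 (ENSBTAG00000004457) was lowest at 21.5, at the median 26.5 and highest at 34.6 CPM in restricted animals, against 23.4, 26.3 and 30.1 CPM in controls. Restricted animals held both the highest value, in restricted 5, and the lowest, in restricted 6. The log2 ratio was 0.011 ± 0.10 (SE), with an interval of -0.20 to 0.22 and an edgeR unadjusted p of 0.913, and it changed sign in 4 of 14 fits without 1 animal. ORAI3 (ENSBTAG00000002344), which can join ORAI1 in a pore, was lowest at 1.87, at the median 2.28 and highest at 3.34 CPM in restricted animals, against 1.33, 2.20 and 3.24 CPM in controls. The groups overlapped, with restricted 7 highest and control 1 lowest. Its log2 ratio was 0.20 ± 0.186 (SE), with an interval of -0.19 to 0.59 and an edgeR unadjusted p of 0.301, and lay between 0.11, without control 1, and 0.31, without control 5. Without the 3 interferon-high libraries it was 0.13. ORAI2 (ENSBTAG00000012050), a pore subunit described as a brake on entry in mouse T cells, had only 2 to 9 reads in any library, too few for the filter. It lay between 0.126 and 0.509 CPM in restricted and between 0.121 and 0.631 CPM in control animals. In the RefSeq table ORAI1 overlaps a tRNA gene and ORAI2 and ORAI3 overlap an unnamed locus each, so their counts could hold reads of these.

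Between the diets 1 of the 6 tested entry genes, CRACR2B, lay lower in restricted animals at an unadjusted p under 0.05, and it was chosen for that. Of all genes tested 2.08% did so. None of the 6 lay higher at that threshold, against 2.17% of all genes. After Benjamini-Hochberg adjustment of the p-values from edgeR's quasi-likelihood test, 0 of the 6 and 0% of the 12187 genes passed an adjusted p of 0.05, with 518 genes at an unadjusted p under 0.05. DESeq2 passed 1 gene, MTSS1L, which is no entry gene and is named here after its value was seen, and limma's voom passed 0. By a two-sided exact permutation test on log2 CPM over all 3432 assignments of the animals, p was 0.623 for STIM1, 0.352 for STIM2, 0.991 for ORAI1, 0.274 for ORAI3 and 0.306 for CRACR2A. The 95% intervals kept the ratio within 0.92 to 1.14 for STIM1, 0.905 to 1.25 for STIM2 and 0.871 to 1.17 for ORAI1. They were wider for ORAI3, at 0.874 to 1.505, and for CRACR2A, at 0.857 to 1.60.

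**Figure D3:**
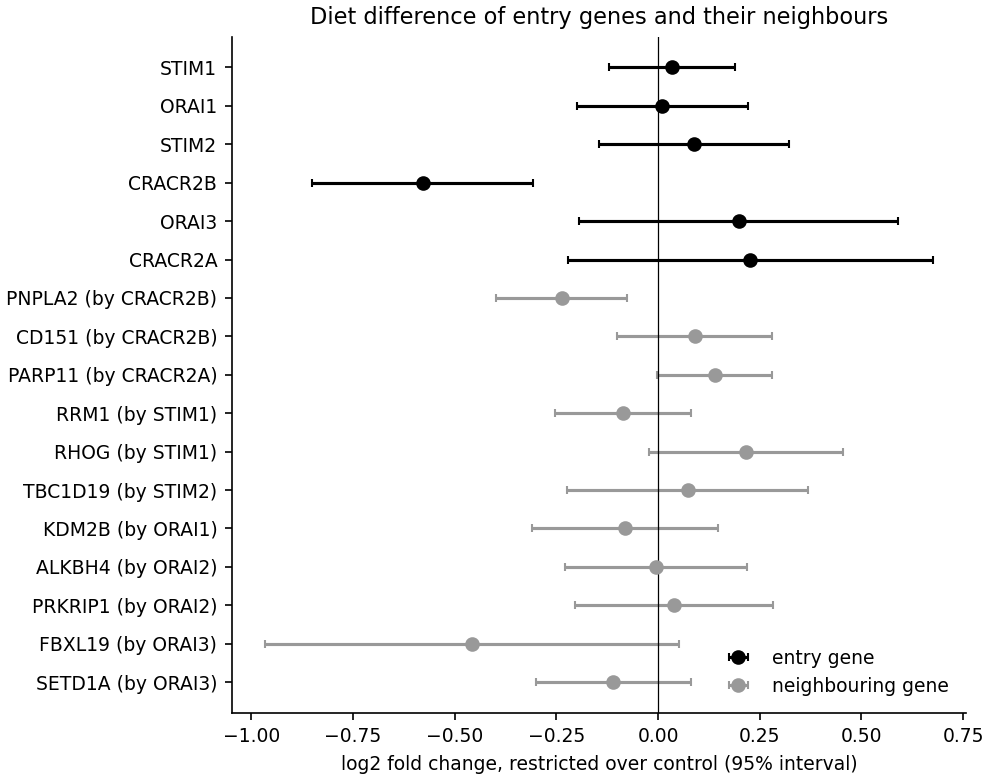
Log2 fold change, restricted over control, with its 95% interval from edgeR for the 6 tested entry genes (black, ordered by level) and for the nearest named genes tested (grey). The intervals of CRACR2B, at -0.85 to -0.31, and of its neighbour PNPLA2 excluded 0, and those of the other entry genes did not.

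The nearest named genes of the other entry genes, where counted, were compared in the same way. Beside RHOG, TBC1D19, KDM2B and MORN3 an unnamed locus, not analysed here, lies nearer to the entry gene. PARP11, which adjoins CRACR2A and encodes an ADP-ribosyltransferase, was at 17.1 ± 0.757 CPM in restricted and 15.5 ± 1.07 CPM in control animals (SD, n = 7 each), a log2 ratio of 0.14 with an interval of -0.002 to 0.28. Its log2 CPM had an r of 0.66 with that of CRACR2A over the 14 animals and of 0.71 within each group, though the spread of CRACR2A was not detectable beyond counting error. FBXL19, an F-box protein gene beside ORAI3, was at 1.93 ± 0.522 CPM in restricted and 2.65 ± 1.02 CPM in control animals, a log2 ratio of -0.46 with an interval of -0.97 to 0.05 and an edgeR unadjusted p of 0.075. That ratio depended on the animals used, at -0.28 (edgeR unadjusted p = 0.226) without control 2, -0.56 (0.0289) without control 7 and -0.73 (0.0117) without the 3 interferon-high libraries. The edgeR unadjusted p was also under 0.05 without control 5, without restricted 7 and with title letters as covariates. RRM1 and RHOG beside STIM1, TBC1D19 beside STIM2, KDM2B beside ORAI1, SETD1A beside ORAI3 and ALKBH4 and PRKRIP1 beside ORAI2 had log2 ratios from -0.11, for SETD1A, to 0.22, for RHOG. MORN3 beside ORAI1 had 0 to 6 reads and was not tested. In the main fit, with all 14 animals and no covariates, the interval of each tested neighbour apart from PNPLA2 held 0. For PARP11 the edgeR unadjusted p was 0.0464 with relative log expression scaling, 0.0282 without control 1 and 0.0394 without restricted 1. For RHOG it was 0.0183 without control 2, 0.028 without restricted 4 and 0.0436 without restricted 6. In the other edgeR fits it was above 0.05 for both genes.

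Over the animals the entry genes did not rise and fall together. Among the 15 pairs of tested entry genes Pearson's r of log2 CPM ran from -0.57 to 0.37, and 0 pairs passed an adjusted permutation p of 0.05, with 1 at an unadjusted permutation p under 0.05. That pair was CRACR2A and ORAI1, with r of -0.57 (permutation p = 0.0332, adjusted p = 0.498) and a Spearman rho of -0.55 (permutation p = 0.0437, adjusted p = 0.327). It was -0.62 among restricted and -0.53 among control animals, and -0.35 without restricted 6 and restricted 7, the 2 animals farthest from the CRACR2A median. The low read counts of CRACR2A, whose spread was not detectable beyond counting error, limit this value. STIM1 and ORAI1, the sensor and the pore that work as a pair, had r of 0.10 and rho of 0.16 (permutation p = 0.738 and 0.582), with 0.11 among restricted and 0.08 among control animals. CRACR2B had r of -0.46 with ORAI3, -0.38 with CRACR2A and 0.03 with ORAI1 over all animals, which includes the diet difference it was chosen for. Centred on diet these were -0.36, -0.26 and 0.05.

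**Figure D4:**
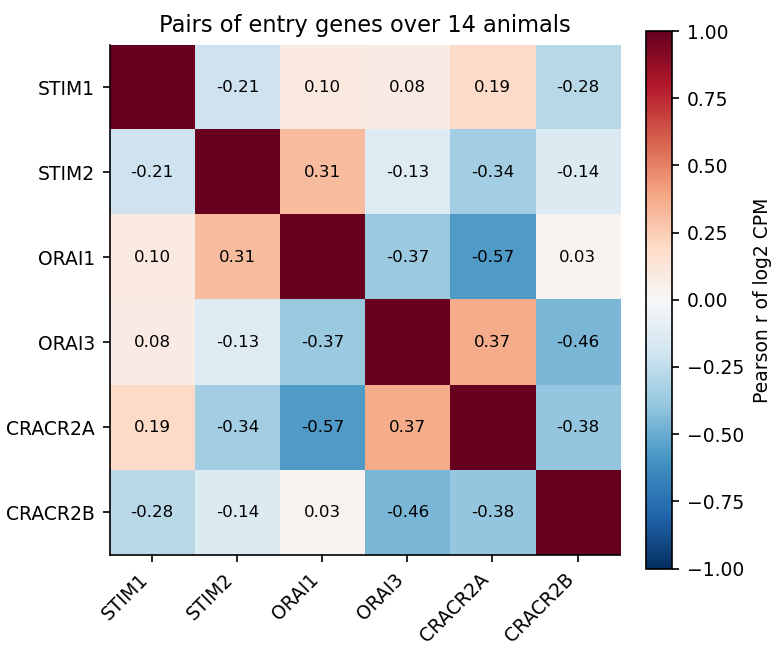
Pearson r of log2 CPM for each pair of tested entry genes over the 14 animals, with colour from -1 to 1. The strongest value was -0.57 for CRACR2A with ORAI1, and no pair passed after adjustment over the 15 pairs.

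The entry genes were also set against fibre type, other cell types and depth, in 54 relations of which 0 passed an adjusted permutation p of 0.05 and 2 had an unadjusted permutation p under 0.05, against 1 after centring each diet group on its mean. CRACR2A lay higher where slow fibre genes were high relative to fast ones, with r of 0.67 (permutation p = 0.00836, adjusted p = 0.451) and rho of 0.66 (permutation p = 0.0119, adjusted p = 0.640). The value was 0.90 among restricted and 0.60 among control animals, and 0.60 without restricted 6 and restricted 7, and 0.78 after centring. The spread of CRACR2A was not detectable beyond counting error, which limits what this relation can show. CRACR2B lay higher where the smooth muscle and pericyte list was high, with r of 0.59 and rho of 0.53 over all animals. These values include the diet difference that CRACR2B was chosen for and are a description. Centred on diet r was 0.40, with 0.57 among restricted and 0.27 among control animals, and the pooled value was 0.72 without control 3 and control 4. Centred values of CRACR2B were larger in size with library size, at 0.52, and with the interferon list, at -0.49. With library size r was -0.006 among restricted and 0.85 among control animals. With the interferon list it was -0.62 and -0.34 in the same order. Without control 3 the relation of CRACR2A with fibre type had r of 0.78 and an adjusted permutation p of 0.0472 over all 54 relations. The pooled r of CRACR2B with the smooth muscle list was then 0.80. That relation ranked ahead by permutation p and shared the adjusted value. The pass of CRACR2A thus leaned on a relation that contains the diet difference CRACR2B was chosen for, and does not stand by itself. The smooth muscle list itself, 12 of 12 markers tested, summed to 359.3 to 445.9 CPM in restricted and 356.9 to 486.0 CPM in control animals. Of its 12 markers 10 had a log2 ratio below 0, against 6126 of all 12187 genes tested. So did 9 of 12 endothelium, 6 of 10 fibroblast, 6 of 8 adipocyte, 4 of 7 T and NK cell and 4 of 10 macrophage markers. The part of smooth muscle in the CRACR2B difference was not tested.

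The genes whose log2 CPM followed CRACR2B most closely, after centring each diet group on its mean, were MEPCE, a methyltransferase that caps a small nuclear RNA, at r of 0.88, KMT5C, a histone methyltransferase, at 0.87, and PRR14, a nuclear lamina protein, at 0.84. A row labelled BoLA, the cattle major histocompatibility complex, and RAMP2, a receptor partner for adrenomedullin, followed at 0.82 each. Their own log2 ratios between the diets lay between -0.12, for RAMP2, and 0.06, for the BoLA row, against -0.58 for CRACR2B. CRACR2A, whose spread was not detectable beyond counting error, ran closest to RCN2, a calcium-binding protein of the endoplasmic reticulum (r of 0.94), CECR2 (0.89) and GRIP1 (0.85). STIM1 ran closest to CENPP (0.88), GLB1L2 (0.87) and TBC1D24 (0.86), and STIM2 to the ceramide kinase CERK (0.83), the ubiquitin ligase SMURF1 (0.83) and INTS4 (0.82). ORAI1 ran closest to FAM89B (0.87), the transcription factor TEAD4 (0.84) and ARL6IP4 (0.81), and ORAI3 to CHSY3 (0.92), LYSMD2 (0.86) and TSPYL5 (0.84). These are the highest of 12186 correlations per gene over 14 animals and are given as a description.

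Around the entry complex, 5 lists of calcium genes showed no adjusted difference between the diets. Of their 85 tested genes 0 passed an adjusted p of 0.05 by edgeR, and 4 (4.71%) had an unadjusted p under 0.05, close to the 4.25% of all genes. The median log2 ratio was -0.060 for 15 modulators of entry, -0.052 for 12 genes of TRPC channels and IP3 signalling, 0.047 for 19 genes of the reticulum store, -0.006 for 24 genes of calcineurin and NFAT signalling and 0.033 for 15 genes of calcium removal and mitochondrial uptake. That of all genes was -0.001. Log2 ratios were above 0 for 5 and below 0 for 10 of the modulators, above for 2 and below for 10 of the TRPC and IP3 genes, above for 11 and below for 8 of the store genes, above for 11 and below for 13 of the calcineurin and NFAT genes, and above for 8 and below for 7 of the last list. Among the entry genes 5 were above and 1 below, with a median of 0.062.

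**Figure D5:**
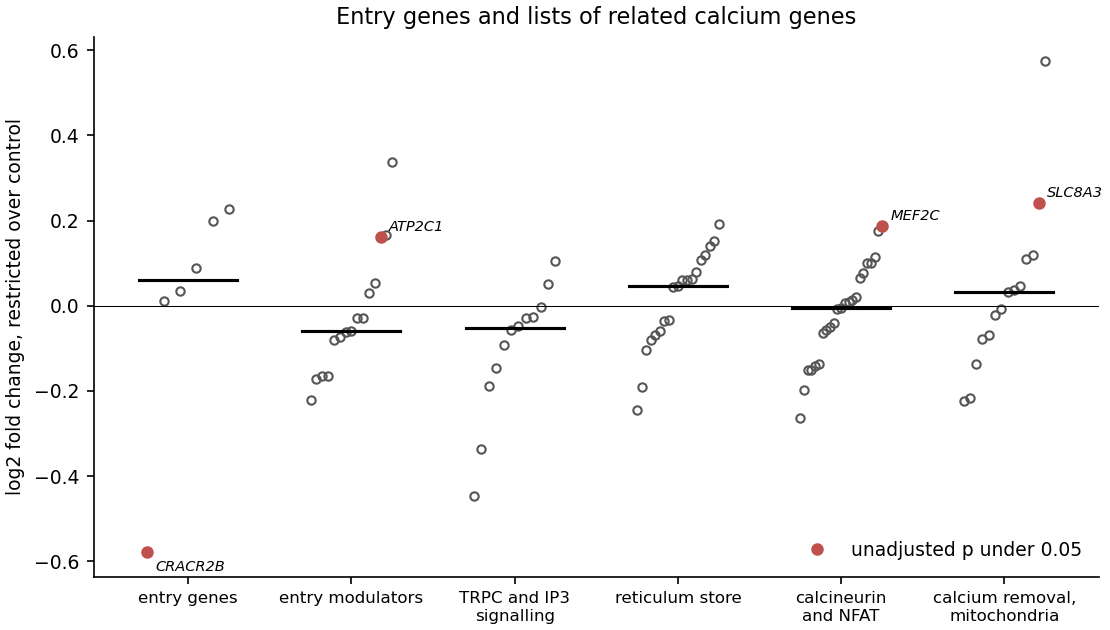
Log2 fold change, restricted over control, of the tested genes of the entry complex and of 5 lists of related calcium genes, 1 point per gene (2 genes are not shown), with a line at the median of each whole list and filled points for an unadjusted edgeR p under 0.05. CRACR2B at -0.58 lay below all other genes shown, having been chosen for its difference.

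Among the modulators, the Golgi calcium pump ATP2C1 was at 68.9 ± 5.78 CPM in restricted and 61.6 ± 3.18 CPM in control animals (SD, n = 7 each; log2 ratio 0.16, edgeR unadjusted p = 0.0213), and the abundant CAV1 and UBQLN1 had log2 ratios of -0.06 and -0.22. That of UBQLN1 was -0.14 without the 3 interferon-high libraries. In the signalling list the phospholipases PLCD4 and PLCD3, its most abundant genes, were at -0.05 and -0.004. The calcium release channel RYR1 and the reticulum pump ATP2A1, which hold most reads of the store list, were at -0.04 and 0.06.

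Among the calcineurin and NFAT genes, CALM3, a calmodulin gene, was at 1375 ± 205.9 CPM in restricted and 1431 ± 87.2 CPM in control animals (SD, n = 7 each; log2 ratio -0.06). The transcription factor MEF2C was at 187.0 ± 20.6 CPM in restricted and 164.4 ± 18.8 CPM in control animals (log2 ratio 0.19, edgeR unadjusted p = 0.0495), and the calcineurin-binding Z-disc gene MYOZ1 was at 0.08. In the last list the sodium-calcium exchanger SLC8A3, which removes calcium across the surface membrane, was at 40.9 ± 4.82 CPM in restricted and 34.6 ± 1.88 CPM in control animals (log2 ratio 0.24, edgeR unadjusted p = 0.00516). The abundant VDAC1, a channel of the outer mitochondrial membrane, was at 0.05. The adjusted p of ATP2C1, MEF2C and SLC8A3 was 1.0 each. With library size scaling the edgeR unadjusted p was 0.13 for ATP2C1 and 0.155 for MEF2C. That of MEF2C was also 0.1065 with title letters as covariates. Leaving out 1 animal at a time, it ran from 0.00904, without restricted 4, to 0.1085, without control 3.

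The sample titles end their number in A or in B, which no label explains, and CRACR2B lay lower in restricted animals under both. Since CRACR2B was chosen for its difference over these same animals, the split describes that difference and does not test it. With A there were 4 restricted and 5 control animals and CRACR2B lay between 3.21 and 4.41 CPM in restricted and between 4.37 and 6.64 CPM in control animals. With B there were 3 restricted and 2 control animals and it lay between 3.23 and 4.64 CPM in restricted and between 6.07 and 7.04 CPM in control animals. The groups met only under A, where the highest restricted animal lay just above the lowest control. STIM2 changed direction with the letter. With A it lay between 9.72 and 12.4 CPM in restricted and between 7.73 and 9.805 CPM in control animals. With B these ranges were 9.34 to 10.3 and 11.5 to 12.2 CPM. CRACR2A lay higher in all restricted animals with B, at 0.838 to 1.245 against 0.583 to 0.831 CPM, and overlapped with A. The narrow gap with B lay between restricted 2, with 13 reads, and control 4, with 15 reads. The spread of CRACR2A was not detectable beyond counting error, so this separation shows little. For the other entry genes the groups overlapped under both letters.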

How the data were processed

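The authors deposited whole-number read counts for each gene, without normalization, beside the gene's length in bases. The submitters' processing notes name FastQC, HISAT2, featureCounts and edgeR and the build ARS-UCD1.2. The annotation release, tool versions, strandedness and the counting of multiply aligned reads are not given in these sources. Groups follow the treatment label. Replicate numbers only name animals and pair nothing.

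The whole table was fitted in R 4.3.3 with edgeR 4.0.16: filterByExpr with both groups (minimum count 10, minimum total 15), TMM scaling, the quasi-likelihood F test without covariates and Benjamini-Hochberg adjustment at 0.05. CPM are relative to the scaled counts of the tested genes. Standard errors are the log2 fold change over the root of F. The procedure was tested on simulated data. DESeq2 1.42.0 and limma 3.58.1 were alternatives, as were other scalings, no filter, title letters as covariates and leaving out libraries. Correlations used log2 CPM (prior count 2) and 100000 permutations, adjusted within each family of relations (15 and 54). Whether animals had a dam or sire in common is not stated. Between any 2 libraries chi-square over its degrees of freedom was at least 9.99, so none was a copy.

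The members and all lists were chosen with earlier results of these data known. Genes named besides the members were the neighbours in the RefSeq table (7 of 7 members matched by symbol), the 2 genes with most reads in each pathway list, list genes with an unadjusted p under 0.05, and the 5 (CRACR2B) or 3 genes of most similar pattern. Of the list genes this rule takes, 2 are not reported here. Intervals rest on the spread between these 14 animals.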

Additional observations from a re-analysis of the deposited data

How the results depend on the processing

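The log2 ratio of CRACR2B stayed below 0 under all alternatives run, between -0.636 with library size scaling and -0.514 without the 3 interferon-high libraries. CRACR2B was chosen for that difference in these same animals, so its steady sign is a description and no test. The log2 ratios of STIM2, ORAI3 and CRACR2A stayed above 0. Library size scaling moved the median of all genes to -0.05. That of STIM1 became -0.013 with library size scaling and -0.055 without the 3 interferon-high libraries. That of ORAI1 became -0.039 with library size scaling and -0.001 as a difference of mean log2 CPM, and ran from -0.055 to 0.061 without single animals. The count of genes past the adjusted threshold was 1 with DESeq2 and 0 under the other alternatives, and that at an unadjusted p under 0.05 was 869 of 17885 with no filter, against 518 of 12187. The count of relations with tissue measures past it ran from 0 to 2 without single animals, the 2 arising without control 3. Of these, 1, that of CRACR2B, contains the diet difference that gene was chosen for. The other, that of CRACR2A with fibre type, shared its adjusted p and so leaned on it. Log2 ratios near 0 changed sign for TBC1D19 (-0.005 with title letters as covariates), ALKBH4 (0.005 with no filter, 0.007 with voom, 0.069 without the 3 libraries), PRKRIP1 (-0.005 with library size scaling) and PLCD3 (0.006 with no filter, 0.040 with voom, 0.023 without the 3 libraries). Without single animals they ran from -0.071 to 0.049 for ALKBH4, -0.024 to 0.091 for PRKRIP1, -0.065 to 0.099 for PLCD3, -0.089 to 0.017 for PLCD4, -0.094 to 0.018 for RYR1, -0.101 to 0.006 for CALM3 and -0.007 to 0.103 for VDAC1. The cause of these changes was not tested. Without the 3 interferon-high libraries the log2 ratio also moved by over 1.5 times for ORAI1 (0.005), ORAI3 (0.128), RRM1 (-0.043), TBC1D19 (0.047), PRKRIP1 (0.095), FBXL19 (-0.731), SETD1A (-0.188), UBQLN1 (-0.135), CAV1 (-0.013), PLCD4 (-0.113) and CALM3 (-0.111). FBXL19 ran from -0.558 to -0.284 and STIM2 from 0.038 to 0.155 without single animals. Low counts limit CRACR2A, ORAI3 and ORAI2 most.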
